A study of Mus musculus with 11 samples.

Results

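The 10 genes described here are known from intestinal goblet cells, the mucus-producing cells of the gut lining, and were followed through mouse duodenal cells sorted for an enteroendocrine reporter. They are Muc2, Fcgbp, Clca1, Zg16, Tff3, Spink4, Agr2, Agr3, Spdef and Muc13, chosen by name from the 38283 genes of a table of read counts, and all 10 had enough counts to be among the 14332 genes tested. The question was which of them are shared by hormone-producing cells and which stay with the reporter-negative cells, where goblet cells belong.

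RNA came from the duodenal epithelium of mice of 2 strains, Neurod1-cre-eYFP and GluVenus, kept on a light and dark cycle with free access to water and chow and with no treatment named. In Neurod1-cre-eYFP mice a yellow fluorescent protein follows Cre driven by Neurod1, a transcription factor of enteroendocrine cells, so cells that once expressed Neurod1 can stay marked. In GluVenus mice the Venus protein follows the proglucagon gene Gcg. The groups were NeuroD1 positive (3 libraries), NeuroD1 negative (3), Glu positive (3) and Glu negative (2), where positive cells carry the reporter and negative cells are a similar number of sorted cells without it. The labels give no age or sex. Nothing in them ties the number in a library's name to an animal, and the p-values therefore reflect variation among libraries, which may be technical. Wherever a value is given for each library, NeuroD1 libraries are in the order NeuroD1_positive_6360, NeuroD1_positive_6361 and NeuroD1_positive_6362, and likewise for the negative libraries, Glu positive libraries in the order Glu_positive_5254, Glu_positive_5160 and Glu_positive_4665, and Glu negative libraries in the order Glu_negative_5254 and Glu_negative_4665.

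Goblet cells store mucus in granules as tightly packed, heavily glycosylated mucin and release it to cover the epithelium. Muc2 is the mucin that forms the gel, Fcgbp, Clca1 and Zg16 are secreted with it, and Tff3 and Spink4 are small secreted peptides. Agr2 and Agr3 are related proteins of the disulphide isomerase family in the endoplasmic reticulum, and Agr2 is needed to make Muc2 in mouse intestine. Spdef is a transcription factor of goblet and Paneth cell maturation, and Muc13 is a mucin anchored in the cell membrane that absorptive cells also carry. Goblet and enteroendocrine cells both descend from secretory progenitors of the crypt.

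The genes lie on 6 chromosomes of the build GRCm38. Muc2 (ENSMUSG00000025515) is at chr7:141690340-141754693 and Fcgbp (ENSMUSG00000047730) at chr7:28071236-28120862, both on the plus strand, and Zg16 (ENSMUSG00000049350) is at chr7:127050156-127087328 on the minus strand. Clca1 (ENSMUSG00000028255) is at chr3:145003817-145032776 on the minus strand, Spink4 (ENSMUSG00000028415) at chr4:40920052-40931395 on the plus strand and Muc13 (ENSMUSG00000022824) at chr16:33794037-33819934 on the plus strand. Tff3 (ENSMUSG00000024029) at chr17:31125306-31129646 and Spdef (ENSMUSG00000024215) at chr17:27714352-27728955 are both on the minus strand. Agr3 (ENSMUSG00000036231) at chr12:35925620-35949736 and Agr2 (ENSMUSG00000020581) at chr12:35992907-36004087 are neighbours on the plus strand, 43170 bases apart. On the opposite strand Zg16 overlaps Gm44939 and Gm22747, and Muc13 overlaps Gm15657. Because the use of strand in counting is not given in the sources used here, reads of those genes cannot be told apart.

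RefSeq promoter windows (GRCm38.p6) were found for 6 of the 10 genes. The windows of Agr3 and Agr2 are shown because these neighbouring genes of 1 family differed most in how they were divided between the sorted populations, and those of Muc2 and Fcgbp because these genes stood on the other side of that division. Each is the 250 bases before the start of the gene in RefSeq, 5′ to 3′ on the gene's strand, with capitals marking the E-box CANNTG, the core bound by basic helix-loop-helix factors such as Neurod1, on either strand. The forkhead motif TGTTTAC was marked in the same way and had no match in these 4 windows.
Agr3, chr12:35925371-35925620, plus strand: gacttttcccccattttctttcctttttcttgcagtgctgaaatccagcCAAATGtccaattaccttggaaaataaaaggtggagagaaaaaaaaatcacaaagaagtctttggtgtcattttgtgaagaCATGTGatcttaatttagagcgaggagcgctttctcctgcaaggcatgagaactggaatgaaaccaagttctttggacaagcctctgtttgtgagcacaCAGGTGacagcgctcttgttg
Agr2, chr12:35992675-35992924, plus strand: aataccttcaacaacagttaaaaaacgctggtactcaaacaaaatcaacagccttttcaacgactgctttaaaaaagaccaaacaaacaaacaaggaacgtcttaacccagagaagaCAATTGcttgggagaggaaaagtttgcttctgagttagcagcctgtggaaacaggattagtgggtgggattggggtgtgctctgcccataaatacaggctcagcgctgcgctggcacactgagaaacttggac
Muc2, chr7:141690090-141690339, plus strand: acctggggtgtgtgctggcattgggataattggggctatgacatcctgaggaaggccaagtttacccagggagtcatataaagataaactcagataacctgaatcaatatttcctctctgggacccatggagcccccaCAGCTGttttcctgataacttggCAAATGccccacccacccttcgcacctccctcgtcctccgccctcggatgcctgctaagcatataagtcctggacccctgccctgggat
Fcgbp, chr7:28070986-28071235, plus strand: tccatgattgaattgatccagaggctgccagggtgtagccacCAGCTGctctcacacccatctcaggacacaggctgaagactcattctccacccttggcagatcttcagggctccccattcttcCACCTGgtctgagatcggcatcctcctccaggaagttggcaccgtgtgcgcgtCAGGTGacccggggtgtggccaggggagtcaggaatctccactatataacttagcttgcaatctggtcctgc
The RefSeq starts of Agr3 and Agr2 lie downstream of the starts given above, so the Agr3 window ends on the first base of the gene as placed there and the Agr2 window runs a little way into it. Agr3 held 3 E-boxes, beginning 201, 120 and 21 bases before the RefSeq start, and Agr2 held 1, at 133 bases. Muc2 held 2, at 112 and 89 bases, and Fcgbp 3, at 208, 125 and 72 bases. An E-box was found in 66.2% of all 32851 promoter windows of this length, so its presence sets none of the 4 apart. The form CAGCTG, which is also an E-box, was in the Muc2 and Fcgbp windows and in 13.0% of all windows, and the form CAGATG was in none of the 4 and in 14.4% of all. Of the other letters searched on both strands, CGGATG was in the Muc2 window and in 4.90% of all, TATAAA was in the Muc2 window and in 12.4% of all, and TGTTTAC was in 3.17% of all. A match is a description of the letters and not evidence of a bound factor.

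Libraries held 2279595 to 5722381 counts, of which the 10 genes took 0.216% to 0.734%. Levels are given as CPM, counts relative to a library's size (edgeR's CPM) scaled by TMM factors, which correct for differences in library make-up. Neurod1 and Gcg were higher in every positive library than in any negative library of their strain, and the summed level of 10 endocrine marker genes was 95600 to 149000 CPM in NeuroD1 positive and 3720 to 4650 CPM in NeuroD1 negative libraries. It was 46700 to 107000 CPM in Glu positive and 3970 to 5270 CPM in Glu negative libraries. Summed, the mitochondrial ribosomal RNAs mt-Rnr1 and mt-Rnr2 took 27.5% to 33.9% of the counts in 5 NeuroD1 libraries, but they had no count in NeuroD1_negative_6360 or any Glu library. The make-up of this sum differed along the NeuroD1 sort. In NeuroD1 positive libraries mt-Rnr1 took 11.4% to 12.1% and mt-Rnr2 15.5% to 17.9%. In NeuroD1_negative_6361 and NeuroD1_negative_6362 mt-Rnr1 took 33% and 33.9%, and mt-Rnr2 took 0%. The cause of this difference was not tested. In these bulk samples fewer cells of a type and less RNA per cell cannot be told apart.

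In the NeuroD1 strain the 10 genes divided into 3 sets. Agr3, Agr2 and Tff3 were higher in the positive cells, Muc2, Fcgbp, Clca1, Zg16 and Spink4 were lower, and Spdef and Muc13 did not pass the test. By edgeR's quasi-likelihood test with Benjamini-Hochberg adjustment over 14332 genes, at an adjusted p under 0.05, 3 of 10 were called higher and 5 of 10 lower, against 6.57% of all genes called higher and 7.61% called lower. The median log2 fold change of the 10 genes was -2.15, beside 0.0188 for all genes tested. The same 8 genes had groups that did not overlap, and over all genes tested 18.3% stood higher and 17.2% lower without overlap.

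In the Glu strain only Agr3 was called higher and only Fcgbp lower among the 10, against 4.22% of all genes called higher and 2.41% called lower by the same test. The other 8 did not pass. Without regard to the test, Agr3 and Muc13 stood higher in every Glu positive library, and Fcgbp, Zg16, Spink4, Clca1 and Spdef stood lower, with 15.8% of all genes higher and 16.5% lower in that way. The median log2 fold change of the 10 genes was -0.69, beside 0.117 for all genes.

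**Figure D1:**
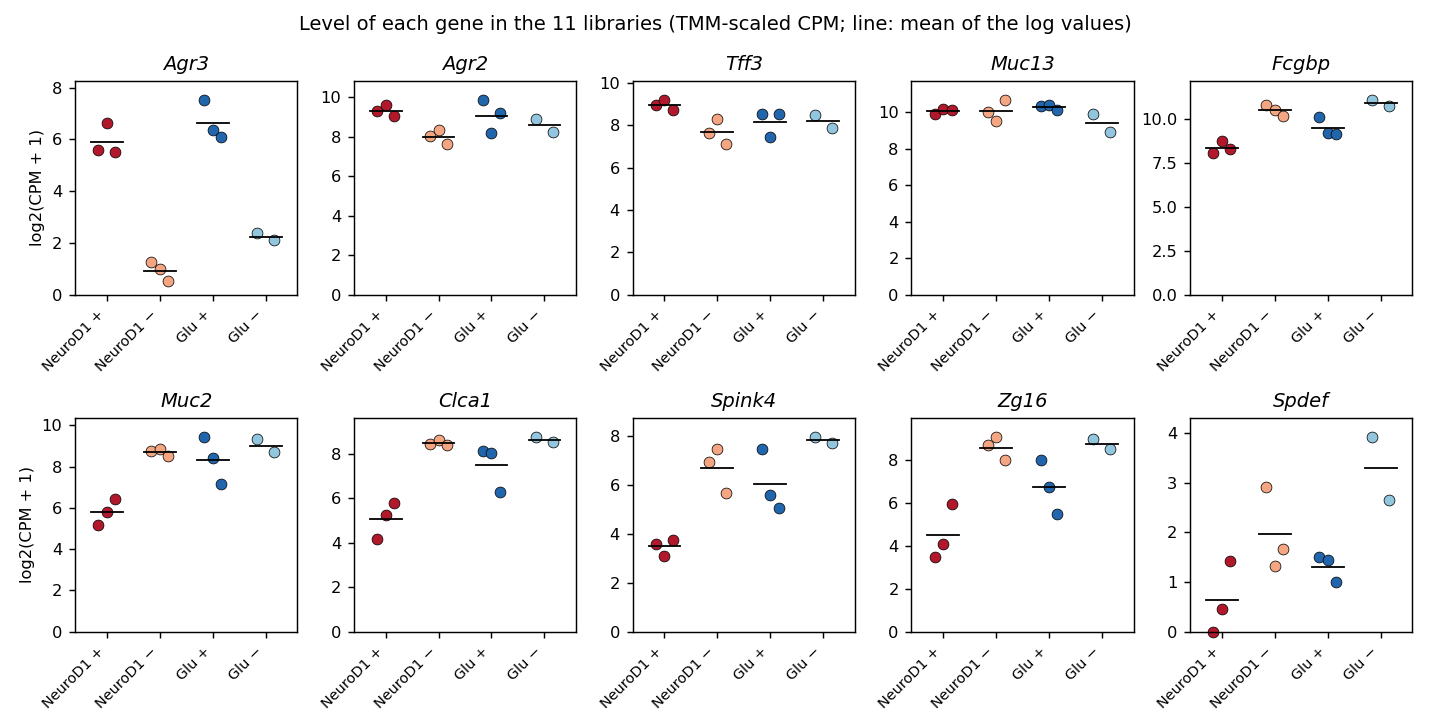
Level of each of the 10 genes as log2(CPM + 1), with 1 point per library in the 4 groups and a line at the mean of the log values. Agr3 is high in both positive groups and far lower in both negative groups, with the Glu negative points above the NeuroD1 negative ones. Muc2, Clca1, Spink4 and Zg16 are lowest in the NeuroD1 positive libraries. The exception is Zg16 in 1 Glu positive library, which lies below the highest NeuroD1 positive one.

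Of the disulphide isomerase relatives, Agr3 was nearly confined to the positive cells of both strains and Agr2 was counted in all 4 groups. Agr3 had 130, 255 and 210 counts in NeuroD1 positive libraries, against 8, 2 and 1 counts in the NeuroD1 negative libraries. That is 47.7, 97.3 and 44.5 CPM in the positive libraries and 1.41, 1.004 and 0.437 CPM in the negative libraries, with no overlap and a wide gap. Its log2 fold change was 5.88 ± 0.62 (SE; adjusted p = 5.54e-06, edgeR), and only 0.307% of the genes tested had a higher one.

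Agr3 in the Glu strain had 595, 237 and 467 counts in positive libraries, against 19 and 24 counts in negative libraries. The levels were 180.5, 81.7 and 66.5 CPM in Glu positive cells, against 4.20 and 3.36 CPM in Glu negative cells, again without overlap. There the log2 fold change was 4.85 ± 0.65 (adjusted p = 0.000171, edgeR). Of the 10 genes Agr3 is the one that rose in the positive cells of both strains, and its counts lay almost wholly in the endocrine-sorted cells, against its label as a goblet cell gene. The endocrine marker sums given above were themselves low and not 0 in the negative libraries, and their part in the few Agr3 counts there was not tested.

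Agr2 was abundant on both sides of the sort. It stood at 623, 771 and 531 CPM in NeuroD1 positive libraries, against 261, 320 and 195 CPM in NeuroD1 negative libraries, and every positive library was above every negative one. That gives a log2 fold change of 1.31 ± 0.38 (adjusted p = 0.0243, edgeR). Agr2 in the Glu strain was at 912, 292 and 580 CPM in positive libraries, against 481 and 303 CPM in negative libraries, so the groups overlapped. The log2 fold change there was 0.60 ± 0.42, with a 95% interval of -0.22 to 1.42, and did not pass (adjusted p = 0.413, edgeR).

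The ratio of the neighbours differed sharply between the sorts. Per kilobase of exon, Agr3 was 10.2% to 16.8% of Agr2 in NeuroD1 positive libraries and 0.297% to 0.718% in NeuroD1 negative libraries. It was 15.2% to 37.2% of Agr2 in Glu positive libraries and 1.16% to 1.47% in Glu negative libraries. Such ratios within a library do not depend on its scaling. Of the genes around the pair, Tspan13, a tetraspanin membrane protein next to Agr2, was also called higher in NeuroD1 positive cells (1.15 ± 0.30, adjusted p = 0.0134, edgeR) and had 0.96 ± 0.34 in the Glu strain (adjusted p = 0.0962). Ahr, the aryl hydrocarbon receptor on the other side of Agr3, was called lower in NeuroD1 positive cells (-2.21 ± 0.55, adjusted p = 0.0104) and had -0.65 ± 0.57 in the Glu strain (adjusted p = 0.526). Both were picked for their place beside the pair.

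Among the small secreted peptides, Tff3 and Spink4 went opposite ways. Tff3, a trefoil peptide that supports epithelial repair, stood at 491, 572 and 424 CPM in NeuroD1 positive libraries, against 195, 309 and 139 CPM in NeuroD1 negative libraries. All 3 positive libraries were above all 3 negative ones, with a log2 fold change of 1.21 ± 0.36 (adjusted p = 0.0313, edgeR). Tff3 in the Glu strain was at 372, 174 and 365 CPM in positive libraries, against 360 and 234 CPM in negative libraries. The Glu groups overlapped, and the log2 fold change was 0.03 ± 0.40 with a 95% interval of -0.75 to 0.82 (adjusted p = 0.978, edgeR), turning below 0 under 7 of 15 alternatives, which included scaling by library totals (-0.29) and by upper quartile (-0.23).

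The Agr2 and Tff3 calls in the NeuroD1 strain were the least secure of the 8. With library totals in place of TMM factors Agr2 had 1.00 ± 0.38 (adjusted p = 0.0899) and Tff3 had 0.92 ± 0.39 (adjusted p = 0.127). Agr2 lost its call when NeuroD1_positive_6360 (adjusted p = 0.0584, edgeR), NeuroD1_positive_6361 (0.0952), NeuroD1_negative_6360 (0.0833) or NeuroD1_negative_6362 (0.11) was left out. Tff3 lost its call without any 1 of the libraries other than NeuroD1_negative_6361, with adjusted p values of 0.053 to 0.142 (edgeR). Both stayed higher in the positive cells under every alternative run.

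Spink4, a secreted protease-inhibitor-like peptide, stood at 11, 7.63 and 12.5 CPM in NeuroD1 positive libraries, against 122, 178 and 49.8 CPM in NeuroD1 negative libraries. The groups were far apart, with a log2 fold change of -3.47 ± 0.59 (adjusted p = 0.000545, edgeR). Spink4 in the Glu strain was at 175, 46.5 and 32.0 CPM in positive libraries, against 247 and 209 CPM in negative libraries. The positive libraries were all below the negative ones but spread widely, and the log2 fold change of -1.44 ± 0.58 did not pass (adjusted p = 0.144, edgeR). Without Glu_positive_5254 it was -2.54 ± 0.47 and passed (adjusted p = 0.00233, edgeR), as it did with library totals, with no filter and by limma voom.

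Muc2 and the proteins secreted with it were lower in the NeuroD1 positive cells without exception. Muc2 had 94, 144 and 397 counts in NeuroD1 positive libraries, which is 34.5, 54.9 and 84.1 CPM, against 439, 460 and 364 CPM in NeuroD1 negative libraries. The highest positive library was far below the lowest negative one, and the log2 fold change was -2.86 ± 0.47 (adjusted p = 0.000416, edgeR), or 7.25-fold lower. Muc2 was thus reduced and still counted in each positive library.

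Muc2 in the Glu strain was at 688, 341 and 144 CPM in positive libraries, against 642 and 413 CPM in negative libraries. Library Glu_positive_5254 was above both negative libraries and Glu_positive_4665 was well below them. Between these groups it was -0.43 ± 0.49 on the log2 scale, with a 95% interval of -1.38 to 0.52 (adjusted p = 0.637, edgeR). It was -1.12 without Glu_positive_5254 and -0.03 without Glu_positive_4665, and passed in neither case.

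Clca1, a secreted metalloprotease of the mucus, stood at 16.9, 37.4 and 54.5 CPM in NeuroD1 positive libraries, against 347, 390 and 342 CPM in NeuroD1 negative libraries. The gap was wide, and the log2 fold change was -3.30 ± 0.47 (adjusted p = 0.000104, edgeR). In Glu positive libraries Clca1 was at 282, 264 and 77.5 CPM, against 431 and 371 CPM in Glu negative libraries. All 3 were below the negative libraries, but the log2 fold change of -0.95 ± 0.47 did not pass (adjusted p = 0.234, edgeR).

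Zg16, a lectin-like protein that binds bacteria in mucus, was at 10.3, 16 and 60.6 CPM in NeuroD1 positive libraries, against 412, 538 and 254 CPM in NeuroD1 negative libraries. Its log2 fold change was -3.77 ± 0.64 (adjusted p = 0.000545, edgeR), within the SE of that of Spink4, with library NeuroD1_positive_6362 above the other two. Without that library the log2 fold change was -4.93 (adjusted p = 0.000201, edgeR). Zg16 in the Glu strain was at 258, 106 and 43.7 CPM in positive libraries, against 511 and 371 CPM in negative libraries. These groups did not overlap, but the log2 fold change of -1.70 ± 0.63 did not pass (adjusted p = 0.115, edgeR). It was -2.57 ± 0.61 and passed without Glu_positive_5254 (adjusted p = 0.0148, edgeR), and it also passed with library totals, with upper quartile scaling, with no filter and by limma voom.

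Fcgbp, a large protein that binds to Muc2 in the mucus layer, was the only one of the 10 called lower in both strains. It stood at 272, 433 and 317 CPM in NeuroD1 positive libraries, against 1812, 1474 and 1187 CPM in NeuroD1 negative libraries, a log2 fold change of -2.13 ± 0.34 (adjusted p = 0.000287, edgeR). In Glu positive libraries it was at 1109, 610 and 572 CPM, against 2164 and 1709 CPM in Glu negative libraries. The log2 fold change there was -1.34 ± 0.36 (adjusted p = 0.0303, edgeR), and neither pair of groups overlapped. The Glu call was lost without Glu_positive_5160 (adjusted p = 0.0656, edgeR), Glu_positive_4665 (0.0676), Glu_negative_5254 (0.214) or Glu_negative_4665 (0.102), and when the Glu libraries were fitted alone (0.13).

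Spdef was close to the limit of detection. It had 0, 1 and 8 counts in NeuroD1 positive libraries, against 37, 3 and 5 counts in NeuroD1 negative libraries. The 0 allows a level of up to 1.1 CPM, the value of 3 counts in that library, and this limit covers counting error only. Its log2 fold change was -2.16 ± 1.03 (adjusted p = 0.189, edgeR), and the groups overlapped. It was -4.03 without NeuroD1_positive_6362 and -1.24 without NeuroD1_negative_6360, with no call in either case. In Glu positive libraries there were 6, 5 and 7 counts, against 64 and 38 counts in Glu negative libraries. The Glu groups were apart, with a log2 fold change of -2.69 ± 1.04 that did not pass (adjusted p = 0.131, edgeR) and ranged over -3.23 to -1.83 with 1 library left out.

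By CPM, which takes no account of gene length, Muc13 was among the highest of the 10 in all 4 groups. Per kilobase of exon Muc13 ranked 5 of the 10 in Glu negative cells. It stood at 967, 1149 and 1133 CPM in NeuroD1 positive libraries, against 1036, 738 and 1605 CPM in NeuroD1 negative libraries, where the positive libraries lay inside the range of the negative ones. The log2 fold change was -0.06 ± 0.33, with a 95% interval of -0.70 to 0.59 (adjusted p = 0.945, edgeR), and its sign turned under 4 of 16 alternatives. In Glu positive libraries it was at 1295, 1342 and 1134 CPM, against 974 and 491 CPM in Glu negative libraries. Although these groups did not overlap, the log2 fold change of 0.78 ± 0.38 did not pass (adjusted p = 0.223, edgeR).

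**Figure D2:**
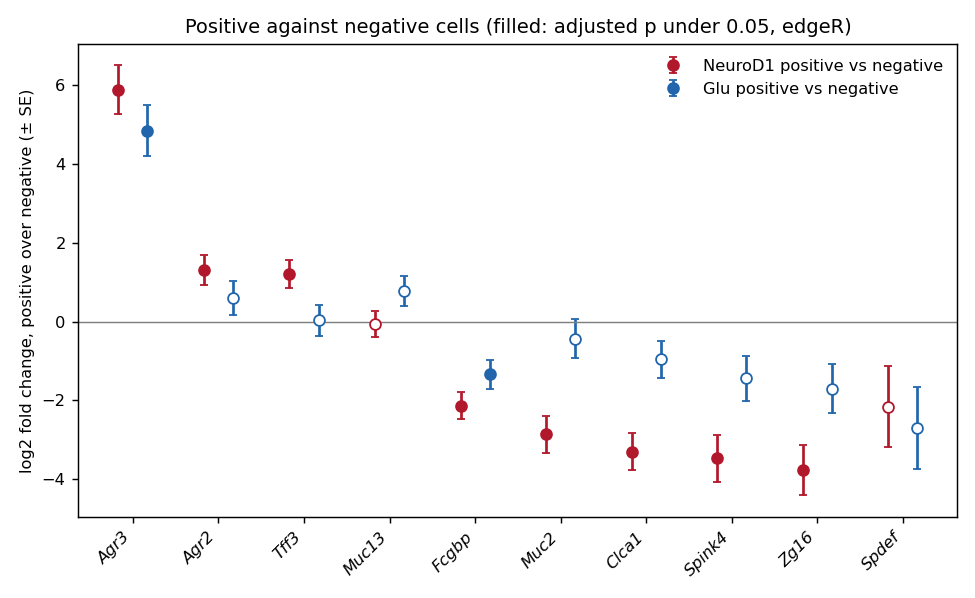
Log2 fold change of each gene in positive over negative cells with its SE, for the NeuroD1 strain and the Glu strain, filled where the adjusted p was under 0.05. Agr3 has the highest value in both strains, and Fcgbp is the only gene filled below 0 in both.

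Of the 8 NeuroD1 calls, 6, those of Agr3, Muc2, Fcgbp, Clca1, Zg16 and Spink4, held under all 16 alternatives run for that comparison, and the Agr3 call in the Glu strain held under all 15, with a highest adjusted p of 0.0153 (edgeR). An interaction term tested whether the sort changed these genes by a different amount in each strain. By edgeR none of the 10 passed, against 0.0907% of all genes called higher and 0.0209% lower, and DESeq2 and limma voom also called none. At an unadjusted p under 0.05 there were 1 higher and 4 lower, beside 1558 of all 14332 genes in either direction. The interaction was -2.43 ± 0.68 for Muc2 (adjusted p = 0.196), -2.35 ± 0.67 for Clca1 (0.197), -2.03 ± 0.82 for Spink4 (0.374), -2.06 ± 0.89 for Zg16 (0.41) and 1.18 ± 0.53 for Tff3 (0.434). For Agr3 it was 1.03 ± 0.80, with a 95% interval of -0.53 to 2.59 (adjusted p = 0.667). Muc2 and Clca1 each passed under 2 of 20 alternatives and Zg16 under 1, those being no filter on low counts (adjusted p = 0.0016 for Muc2, 0.00433 for Clca1 and 0.0209 for Zg16) and, for Muc2 and Clca1, leaving out Glu_positive_4665 (0.0433 and 0.0428). With 1 library left out the interaction ranged over -2.82 to -1.74 for Muc2, -2.77 to -2.01 for Clca1, -2.43 to -0.93 for Spink4, -3.22 to -1.19 for Zg16, 0.84 to 1.54 for Tff3 and 0.59 to 1.57 for Agr3. The values nearest 0 for Muc2, Spink4 and Zg16 were those without Glu_positive_5254, and the one farthest from 0 for Zg16 was that without NeuroD1_positive_6362.

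The positive populations of the strains were set against each other directly. Muc2 (-2.75 ± 0.47, adjusted p = 0.00144), Clca1 (-2.51 ± 0.46, 0.00231), Spink4 (-3.01 ± 0.58, 0.00371), Zg16 (-2.2 ± 0.61, 0.0304) and Fcgbp (-1.17 ± 0.33, 0.0342) were lower in NeuroD1 positive than in Glu positive cells by edgeR. These 5 of 10 stand against 4.95% of all genes called lower, and 0 of 10 against 3.18% called higher, with 0 also called higher by DESeq2 and limma voom and 0 at an unadjusted p under 0.05. Agr2 (0.11 ± 0.37), Tff3 (0.71 ± 0.36), Agr3 (-0.79 ± 0.46), Muc13 (-0.21 ± 0.33) and Spdef (-0.92 ± 1.05) did not pass, and the 95% interval of Agr3 ran from -1.70 to 0.11. Among the 5 called genes, 4 had groups that did not overlap, Zg16 being the exception, against 12.2% of all genes lower without overlap, and Tff3 stood higher without overlap, as did 11.4% of all genes.

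The Zg16 and Fcgbp calls between the positive populations were not secure, and each was lost when any 1 of several libraries was left out. Without Glu_positive_5254 Zg16 had -1.33 ± 0.54 (adjusted p = 0.163, edgeR) and Fcgbp -0.80 ± 0.29 (0.123). Zg16 was also lost without NeuroD1_positive_6360 (0.128) or NeuroD1_positive_6361 (0.131), and Fcgbp without NeuroD1_positive_6360 (0.154), NeuroD1_positive_6361 (0.0563) or NeuroD1_positive_6362 (0.125). Zg16 was -3.36 without NeuroD1_positive_6362 (0.0063). Muc2 and Clca1 held under all 15 alternatives, with Muc2 at -2.06 without Glu_positive_5254, and Spink4 was lost by limma voom alone (0.0708) and was -1.90 without Glu_positive_5254. Strain, reporter and any difference in handling between the strains cannot be told apart in this comparison.

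Between the negative populations none of the 10 passed by edgeR, and DESeq2 and limma voom also called none, against 0.363% of all genes called higher and 0.126% lower in NeuroD1 negative cells. At an unadjusted p under 0.05 only Agr3 stood out, lower at -1.82 ± 0.66 (adjusted p = 0.355, edgeR). Muc2 had -0.32 ± 0.49, Clca1 -0.16 ± 0.48, Zg16 -0.14 ± 0.64 and Fcgbp -0.38 ± 0.36, with 95% intervals that reached from -1.39 for Zg16 to 1.11 for the same gene. Agr3 and Spink4 were lower in every NeuroD1 negative library, beside 16.5% of all genes.

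Markers of other cells moved with these results. Over all genes the NeuroD1 sort called 6.57% higher and 7.61% lower, and the Glu sort 4.22% and 2.41%. The 10 immune marker genes summed to 15.1, 24.8 and 79.7 CPM in NeuroD1 positive libraries, against 771, 863 and 434 CPM in NeuroD1 negative libraries, and all 10 were called lower. They summed to 1670, 406 and 358 CPM in Glu positive libraries, against 1520 and 1630 CPM in Glu negative libraries, with 5 of 10 called lower. The order of the libraries by this sum was the order by Muc2 within both positive groups, library NeuroD1_positive_6362 and library Glu_positive_5254 being the highest in each. Between the positive populations 7 of 10 immune markers were called lower in NeuroD1 positive cells, against 4.95% of all genes. Immune genes at 0 counts numbered at most 1 in a NeuroD1 positive library and none in the others.

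Paneth, tuft and enterocyte markers were also lower in the NeuroD1 positive cells. Paneth markers summed to 126 to 262 CPM in NeuroD1 positive and 575 to 2750 CPM in NeuroD1 negative libraries, with 6 of 8 called lower, and to 159 to 507 CPM in Glu positive and 408 to 1630 CPM in Glu negative libraries, with none called by edgeR and 4 lower at an unadjusted p under 0.05. Tuft markers summed to 9.92 to 53.4 CPM in NeuroD1 positive and 99.2 to 138 CPM in NeuroD1 negative libraries, with 4 of 7 tested called lower, and to 19.2 to 85.8 CPM in Glu positive and 115 to 165 CPM in Glu negative libraries, with 2 of 7 called lower. Enterocyte markers summed to 3220 to 3940 CPM in NeuroD1 positive and 5350 to 15700 CPM in NeuroD1 negative libraries, with 9 of 10 called lower. They summed to 4550 to 5240 CPM in Glu positive and 3830 to 4830 CPM in Glu negative libraries. There 1 of 10, Sis, was called higher and 4 were called lower. Sis had the highest mean of the 10 in Glu positive cells, 2930 ± 568 CPM, against 715 ± 257 CPM in Glu negative cells. The Glu sums therefore do not stand for the other enterocyte markers. Stromal markers summed to 166 to 245 CPM in NeuroD1 positive and 217 to 337 CPM in NeuroD1 negative libraries, with 4 of 6 called lower and Vim called higher, and to 104 to 452 CPM in Glu positive and 343 to 563 CPM in Glu negative libraries, with none called by edgeR and 2 lower at an unadjusted p under 0.05. Stem and crypt markers summed to 309 to 573 CPM in NeuroD1 positive and 620 to 900 CPM in NeuroD1 negative libraries, with 1 of 8, Mki67, called lower, and to 529 to 907 CPM in Glu positive and 531 to 567 CPM in Glu negative libraries, with none called by edgeR and 2 higher at an unadjusted p under 0.05. The part of these cells in the values of the goblet genes was not tested.

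To set the genes beside each other, counts per kilobase of exon were compared within libraries. Tff3 had the highest RPKM (CPM per kilobase of exon) of the 10 in all 4 groups, with 1010 ± 150 in NeuroD1 positive cells (SD, n = 3), 435 ± 175 in NeuroD1 negative cells (n = 3), 616 ± 227 in Glu positive cells (n = 3) and 603 ± 180 in Glu negative cells (n = 2). Agr2 (497 ± 93.7 RPKM), Muc13 (356 ± 33.1) and Agr3 (65.0 ± 30.4) followed in NeuroD1 positive cells, then Fcgbp (32.4 ± 7.92), Zg16 (23.1 ± 21.9), Spink4 (21.8 ± 5.23), Clca1 (9.60 ± 4.98), Muc2 (8.12 ± 3.50) and Spdef (0.3 ± 0.386). Agr2 and Muc13 were apart in every library, whereas Zg16, Spink4, Clca1 and Muc2 lay within or near each other's spread.

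In NeuroD1 negative cells the order after Tff3 was Muc13 (371 ± 145 RPKM), Zg16 (319 ± 113), Spink4 (244 ± 134), Agr2 (200 ± 48.5), Fcgbp (142 ± 29.8), Clca1 (95.2 ± 6.86), Muc2 (59.1 ± 7.09), Spdef (1.48 ± 1.18) and Agr3 (0.978 ± 0.503). The values of Tff3, Muc13, Zg16 and Spink4 overlapped between libraries, as did those of Spdef and Agr3. Agr3 was last of the 10 in both negative groups, in the 4th place in NeuroD1 positive cells and the 5th in Glu positive cells (113 ± 63.7 RPKM). Muc2 was at 54.9 ± 38.6 RPKM in Glu positive cells and at 74.0 ± 22.7 RPKM in Glu negative cells. Exon lengths came from 1 annotation and the authors' own is not given in the sources used here, so the order of genes with close values is approximate.

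**Figure D3:**
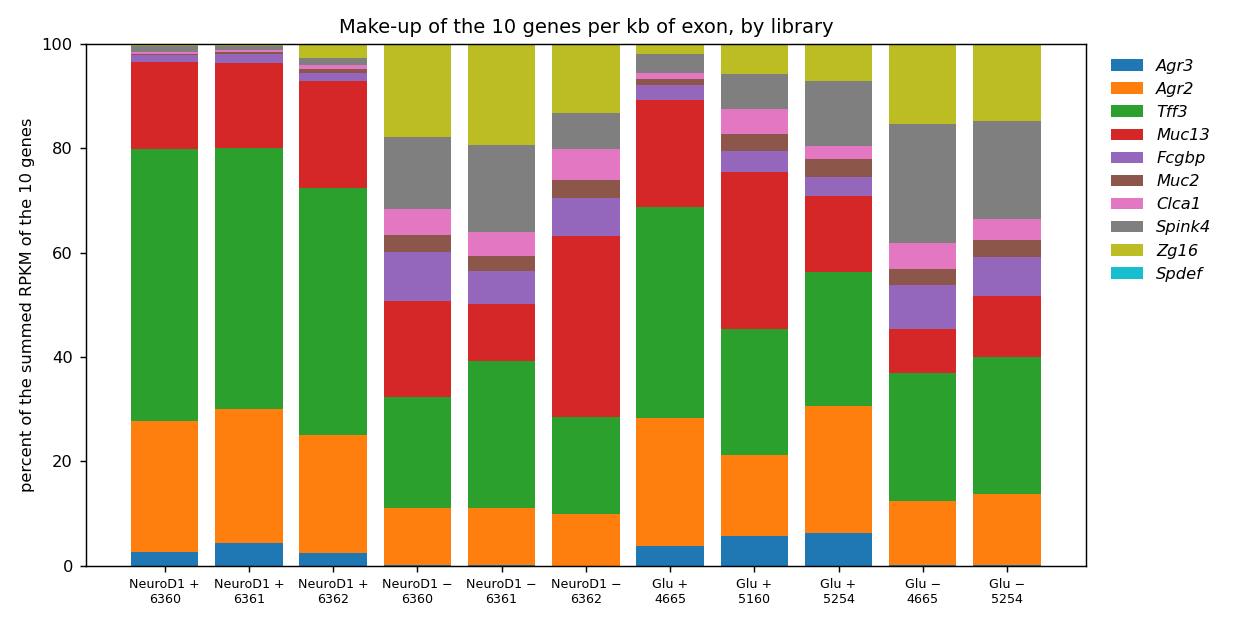
Percent of the summed RPKM of the 10 genes taken by each gene in each of the 11 libraries. Tff3, Agr2 and Muc13 fill most of each NeuroD1 positive bar. Zg16 and Spink4 are larger in the negative bars than in the positive bars of the same strain.

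Of the summed RPKM of the 10 genes, Tff3 took 47.2% to 52.1% in NeuroD1 positive libraries, against 18.5% to 28.1% in NeuroD1 negative libraries. Agr2 took 22.6% to 25.7% in NeuroD1 positive libraries, against 9.92% to 11.1% in NeuroD1 negative libraries. Muc2, the gel mucin itself, took 0.253% to 0.648% in NeuroD1 positive libraries, against 2.90% to 3.35% in NeuroD1 negative libraries. Muc2 in the Glu strain took 1.1% to 3.3% in positive libraries, against 3% to 3.25% in negative libraries, and Zg16 took 1.90% to 7.02% in positive libraries, against 14.7% to 15.3% in negative libraries.

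The ratio of each gene to Muc2, per kilobase within a library, separated the genes that followed Muc2 more closely from those that did not. Clca1 had 1.14 ± 0.191 times the Muc2 value in NeuroD1 positive libraries (SD, n = 3), 1.62 ± 0.141 in NeuroD1 negative, 1.08 ± 0.348 in Glu positive and 1.48 ± 0.304 in Glu negative libraries (n = 2). The Clca1 ratios did not overlap in the NeuroD1 strain, at 0.923 to 1.28 in positive and 1.49 to 1.77 in negative libraries, but did in the Glu strain. Spink4 (2.04 to 7.56 over all libraries), Zg16 (1.65 to 6.62) and Fcgbp (1.09 to 5.35) moved less against Muc2 than the genes named next. Zg16 was 1.72 to 2.13 times Muc2 in Glu positive libraries and 4.52 to 5.10 times in Glu negative libraries, with no overlap.

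Agr3, Agr2, Tff3 and Muc13 did not follow Muc2. Agr3 was 8.99 ± 4.66 times Muc2 in NeuroD1 positive and 0.0161 ± 0.00741 times in NeuroD1 negative libraries, and 2.36 ± 0.898 times in Glu positive and 0.0538 ± 0.00827 times in Glu negative libraries. Agr2 was 70.7 ± 33.0 times Muc2 in NeuroD1 positive and 3.36 ± 0.445 times in NeuroD1 negative libraries. Tff3 was 143 ± 66.4 times Muc2 in NeuroD1 positive and 7.22 ± 2.2 times in NeuroD1 negative libraries, and Muc13 was 48.8 ± 17.1 and 6.53 ± 3.38 times. The ratios of Tff3 in the Glu strain depended on the library, with Tff3 at 36.6 times Muc2 in Glu_positive_4665 but 7.39 and 7.82 times in the other positive libraries, against 8.11 and 8.21 times in Glu negative libraries. Agr2 was 0.478 to 0.515 times Tff3 in NeuroD1 positive and 0.396 to 0.535 times in NeuroD1 negative libraries, which overlapped. In the Glu strain Agr2 was 0.937, 0.639 and 0.608 times Tff3 in positive libraries, against 0.51 and 0.494 times in negative libraries, with no overlap.

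**Figure D4:**
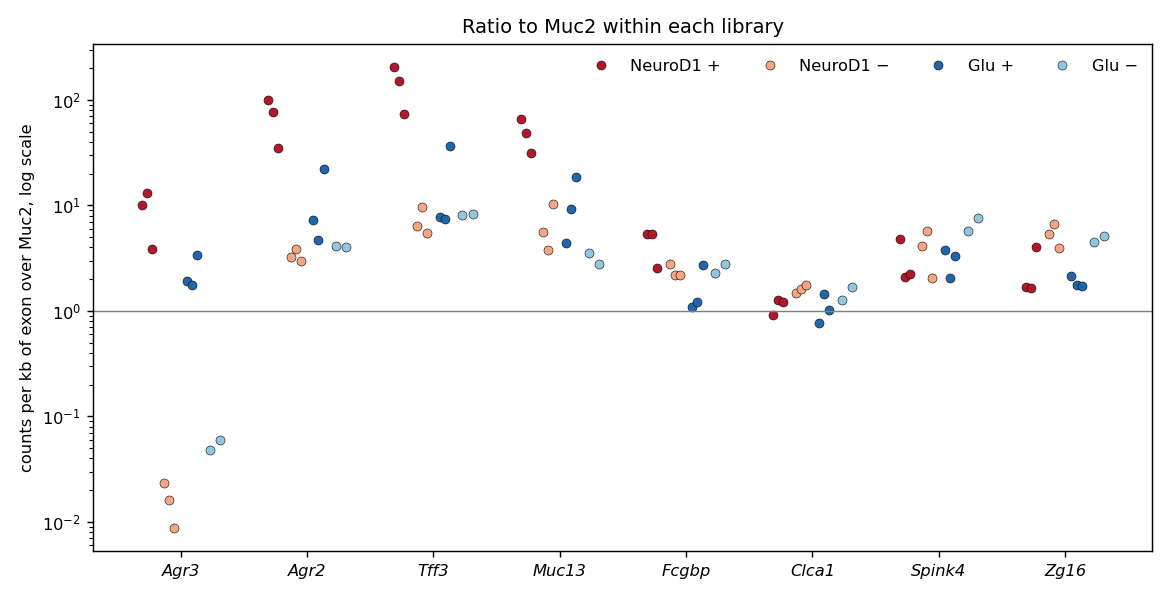
Counts per kilobase of exon of each gene divided by those of Muc2 in the same library, on a log scale, with 1 point per library and a line at 1. Spdef is left out because it had 0 counts in 1 library. Agr3 spans the widest range over the 11 libraries, and Fcgbp, Clca1, Spink4 and Zg16 span narrower ranges than Agr3, Agr2, Tff3 and Muc13.

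The genes whose level over the 11 libraries was most like each of the 10 were taken by Pearson's r of log2 CPM among 5928 well-counted genes, as a description in which all points share the 4 groups and the library sizes. For Agr3 they included Adgrg4, an adhesion receptor (r = 0.994), and Stra6l, a retinol-transport receptor (0.982). For Muc2 they were Rgs1, a regulator of G protein signalling known from lymphocytes (0.981), Adam19 (0.978) and Srgn, the granule proteoglycan of blood cells (0.977). Rgs1 was also among the 3 most alike genes of Zg16 (0.963), Fcgbp (0.955) and Clca1 (0.974), and Srgn among those of Spink4 (0.979) and Zg16 (0.959). The immune marker sums above had the order of Muc2 in both positive groups and among the NeuroD1 negative libraries. In the Glu negative libraries the order was reversed, with immune sums of 1520 and 1630 CPM and Muc2 at 642 and 413 CPM. The part of immune cells in these values was not tested. For Agr2 the first was Selenom (0.937), for Tff3 Zzz3 (0.929), for Spdef Ltbp4 (0.949) and for Muc13 Slc15a1, the peptide transporter of absorptive cells (0.916).

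Other genes of the mucus system were read from lists. Of 12 other mucins, 10 were in the table and 7 were tested. The NeuroD1 sort called 2 of them higher and 1 lower, against 6.57% and 7.61% of all genes. The median log2 fold change was -0.22. For the Glu sort edgeR called 2 higher and 0 lower, against 4.22% and 2.41% of all genes. There were 0 lower at an unadjusted p under 0.05 as well, and the median was 0.36. Muc4, a membrane mucin, stood at 908 ± 186 CPM in NeuroD1 positive and 213 ± 29.3 CPM in NeuroD1 negative cells (log2 fold change 2.09 ± 0.32, adjusted p = 0.000178, edgeR), and at 1410 ± 216 CPM in Glu positive and 210 ± 85.6 CPM in Glu negative cells (2.75 ± 0.38, adjusted p = 0.000226). Muc3a was at 255 ± 65.0 CPM in NeuroD1 positive and 29.5 ± 8.02 CPM in NeuroD1 negative cells (3.12 ± 0.39), and at 185 ± 65.3 CPM in Glu positive and 28.6 ± 7.65 CPM in Glu negative cells (2.69 ± 0.45).

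The gene annotated as Muc3, close to Muc3a on chromosome 5, went the other way in the NeuroD1 strain at -2.35 ± 0.43 (adjusted p = 0.00105, edgeR) and had -0.15 ± 0.46 in the Glu strain. Reads of such related mucins may have been split between them, so their separate values are uncertain. Calls of Muc4, Muc3a and Muc3 held under every alternative run, with Muc3 at -1.65 ± 0.39 without NeuroD1_negative_6362.

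The mucins and trefoil peptides of stomach-type mucous cells and Brunner glands followed the strain and not the sort, a pattern singled out after its values were seen. Muc5ac stood at 288 to 527 CPM in NeuroD1 positive and 440 to 580 CPM in NeuroD1 negative libraries, and had 0 counts in the 5 Glu libraries, which allows up to 0.121 CPM over these libraries together. Tff1 and Tff2, the relatives of Tff3, also had 0 counts in the 5 Glu libraries, against 115 to 209 CPM in NeuroD1 positive and 184 to 263 CPM in NeuroD1 negative libraries. Muc6 was at 286 to 524 CPM in NeuroD1 positive and 497 to 874 CPM in NeuroD1 negative libraries, and at 0.285 to 7.92 CPM in Glu positive and 1.33 to 2.94 CPM in Glu negative libraries. The 7 genes of this list summed to 1050 to 1910 CPM in NeuroD1 positive libraries and 1700 to 2410 CPM in NeuroD1 negative libraries. They were thus counted on both sides of that sort, and why was not tested. Their part in the Tff3 and Agr2 levels of the NeuroD1 libraries was not tested.

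**Figure D5:**
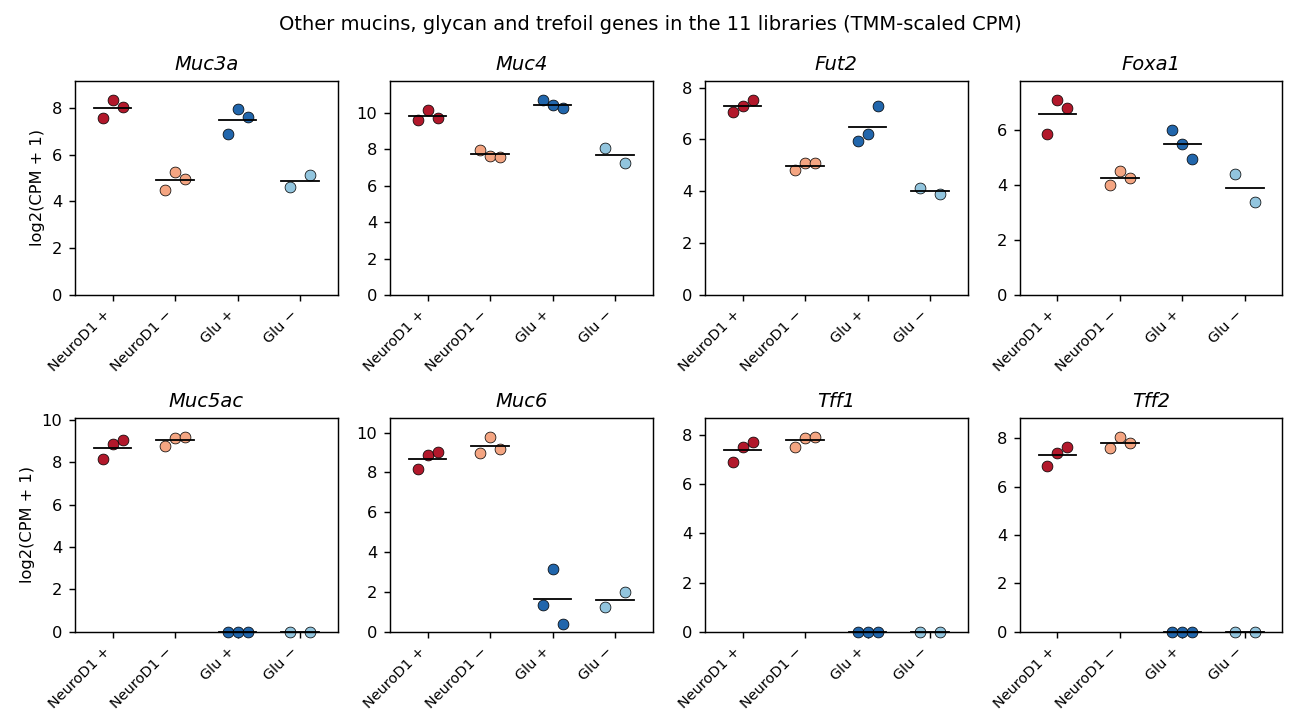
Level of 8 further genes as log2(CPM + 1), with 1 point per library in the 4 groups and a line at the mean of the log values. Muc3a, Muc4, Fut2 and Foxa1 are higher in the positive libraries of both strains, and Muc5ac, Muc6, Tff1 and Tff2 are high in both NeuroD1 groups and at or near 0 in both Glu groups.

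Of 39 enzymes of mucin-type O-glycans and their sugars, 36 were tested. By edgeR 2 were higher and 3 lower in the NeuroD1 sort, close to the 6.57% and 7.61% of all genes. The median log2 fold change there was -0.22. In the Glu sort 5 were higher and 1 lower, against 4.22% and 2.41% of all genes, with a median of 0.09. Fut2, which adds the terminal fucose of secreted glycans, was higher in both strains, at 2.34 ± 0.39 in the NeuroD1 strain (adjusted p = 0.000493, edgeR) and 2.67 ± 0.47 in the Glu strain (adjusted p = 0.00193, edgeR). St3gal4, a sialyltransferase, was lower in both, at -3.54 ± 0.46 in the NeuroD1 strain (-4.17 without NeuroD1_positive_6362) and -1.63 ± 0.46 in the Glu strain (adjusted p = 0.0405, edgeR). Galnt4, an enzyme that starts O-glycans, was higher in both (1.12 ± 0.31 in the NeuroD1 strain and 1.68 ± 0.36 in the Glu strain). The Glu call of St3gal4 and the NeuroD1 call of Galnt4 were not run under the alternatives, so their stability is not known. Chst4, a sulphotransferase, was lower in NeuroD1 positive cells (-2.33 ± 0.71), and lost its call without any 1 NeuroD1 positive library (adjusted p = 0.0814 to 0.111, edgeR) or without NeuroD1_negative_6361 (-1.3, 0.342). Gcnt4, a branching enzyme, was higher in Glu positive cells (2.83 ± 0.79), but its value rested on Glu_positive_5254, being 0.78 ± 0.39 without it (adjusted p = 0.237, edgeR), and the call was also lost without either Glu negative library (0.202 and 0.265). The Glu calls of Galnt4 (0.0765 and 0.148) were lost without either Glu negative library, and that of Fut2 without Glu_negative_4665 (0.0722).

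Of 42 other genes known from goblet cells, 39 were tested. Of these 3 were called higher and 8 called lower by the NeuroD1 sort, against 6.57% and 7.61% of all genes. The Glu sort called 1 higher and 2 lower, against 4.22% and 2.41% of all genes. The median log2 fold change was -0.14 in the NeuroD1 sort and -0.10 in the Glu sort. Tspan13, described above, is 1 of the 3 called higher by the NeuroD1 sort. Clca4b, a relative of Clca1, was lower in NeuroD1 positive cells (25.8 ± 7.07 CPM, against 216 ± 120 CPM in NeuroD1 negative cells, log2 fold change -3.06 ± 0.48). The chemokine Ccl9 was lower there at -4.04 ± 0.78 (-2.99 without NeuroD1_negative_6361), and the tryptase Tpsg1 at -5.0 ± 1.43, with 2 counts in NeuroD1 positive and 55 in NeuroD1 negative libraries. Tpsg1 lost its call without any 1 NeuroD1 positive library (adjusted p = 0.0586 to 0.0908, edgeR) or without NeuroD1_negative_6361 (0.0838). Atp2c2, a calcium and manganese pump of the secretory pathway, was higher at 4.19 ± 0.82. Bace2, a membrane protease, was called higher in both strains, at 1.21 ± 0.39 in the NeuroD1 strain (adjusted p = 0.0433, edgeR). That NeuroD1 call was not run under the alternatives. In the Glu strain Bace2 was at 131 ± 50.2 CPM in positive and 11.7 ± 2.86 CPM in negative cells (log2 fold change 3.48 ± 0.50). Ccl9 (-2.48 ± 0.73) and the folding enzyme Fkbp11 (-3.61 ± 0.96) were lower in Glu positive cells. Fkbp11 lost its call without Glu_positive_5160 (0.0633), Glu_positive_4665 (0.0636), Glu_negative_5254 (0.13) or Glu_negative_4665 (0.143), and Ccl9 without Glu_positive_5254 (0.0724), Glu_positive_4665 (0.101), Glu_negative_5254 (0.299) or Glu_negative_4665 (0.128), as adjusted p by edgeR, with Ccl9 at -3.09 without Glu_positive_5160.

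Of 16 transcription factors of the secretory lineage and goblet cells, Spdef aside, the NeuroD1 sort called 2 higher and 1 lower. Over all genes it called 6.57% higher and 7.61% lower, and the median log2 fold change of the 16 was -0.56. None of the 16 was called in the Glu strain by edgeR, beside 4.22% and 2.41% of all genes. At an unadjusted p under 0.05 there were 2 higher and 5 lower. The forkhead factor Foxa1 stood at 101 ± 39.8 CPM in NeuroD1 positive and 18.5 ± 3.47 CPM in NeuroD1 negative cells (2.46 ± 0.47, adjusted p = 0.00147, edgeR), and its relative Foxa2 at 12.7 ± 3.61 CPM in NeuroD1 positive and 2.1 ± 0.088 CPM in NeuroD1 negative cells (2.58 ± 0.67). Foxa2 lost its call without NeuroD1_positive_6360 or any 1 NeuroD1 negative library (adjusted p = 0.0526 to 0.0655, edgeR). Both had positive values in the Glu strain that did not pass, 1.63 ± 0.53 for Foxa1 and 2.00 ± 0.72 for Foxa2. Gfi1, a repressor that favours goblet and Paneth fates over the endocrine fate in mouse intestine, had 0 counts in the 3 NeuroD1 positive libraries, against 20, 0 and 5 counts in the NeuroD1 negative libraries. It was called lower, but 1 negative library was at 0 as well, and the call was lost without any 1 NeuroD1 positive library or without NeuroD1_negative_6360 or NeuroD1_negative_6362 (adjusted p = 0.067 to 0.138, edgeR).

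Of 20 further genes of the disulphide isomerase family, the relatives of Agr2 and Agr3, and of the Ero1 oxidases that act with it, 19 were tested. For the NeuroD1 sort edgeR called 0 higher and 1 lower, against 6.57% and 7.61% of all genes. There were 3 higher at an unadjusted p under 0.05, and the median log2 fold change was 0.02. In Glu positive cells 2 were higher and 1 lower, against 4.22% and 2.41% of all genes, with a median of -0.05. P4hb, an abundant isomerase subunit, was lower in NeuroD1 positive cells (429 ± 40.3 CPM, against 858 ± 321 CPM in NeuroD1 negative cells), and lost its call without any 1 library other than NeuroD1_negative_6361 (adjusted p = 0.0806 to 0.226, edgeR). The membrane-bound Tmx4 was higher in Glu positive cells (2.08 ± 0.55), with 1.14 and no call without Glu_positive_5254 (adjusted p = 0.075, edgeR) and no call without Glu_negative_5254 (0.226) or Glu_negative_4665 (0.199). Txndc5 was lower there (-1.82 ± 0.48), though it had -0.57 ± 0.55 without Glu_negative_4665 (adjusted p = 0.665, edgeR) and -2.45 without Glu_negative_5254, and lost its call without Glu_positive_5160 (0.0702). None of these values came near those of Agr3, whose log2 fold change was 5.88 in the NeuroD1 strain and 4.85 in the Glu strain.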

How the data were processed

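The 11 libraries of sorted duodenal cells were amplified from 2 ng of RNA each, per the labels' protocols. The authors deposited 1 table of expected counts, 1 column per library, not normalized. Per the submitters' processing notes, the tools were TopHat2 2.1.0, Cufflinks 2.2.1 and CASAVA and the build GRCm38. Which annotation and strand setting were used is not given in the sources used here. Reads amplified without molecular identifiers can be copies of 1 molecule, so limits from low counts cover counting error only. The counts were rounded to whole numbers, which changed 848 genes and none of the 10. Symbols, positions and exon lengths came from GENCODE vM21 on GRCm38, which matched 36425 of 38283 genes.

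Counts were tested in edgeR 4.0.16 (R 4.3.3) by the quasi-likelihood test, after filterByExpr and with TMM factors, in 1 fit of the 4 groups so that all 11 libraries share 1 estimate of the spread, with Benjamini-Hochberg adjustment over 14332 genes and calls at an adjusted p under 0.05. The 5 comparisons were positive against negative cells in each strain, the positive and the negative populations between strains, and the interaction. SE was taken as the absolute log2 fold change over the root of F, and errors of levels are SD. Replicates of every group differed by more than sampling noise, so all were kept apart. The fit was checked against simulated counts with known changes. The 10 genes and all lists were chosen with earlier results of these data known. Named are all 10 genes, of each list up to 4 called genes by size of change per strain and up to 2 abundant genes that did not pass, and for each of the 10 the 3 genes most alike with an average log2 CPM of at least 4, of which the text uses fewer. Muc5ac, Muc6, Tff1, Tff2 and the neighbours of Agr2 and Agr3 were chosen outside this rule. The alternatives changed the scaling (RLE, upper quartile, library totals, mt-Rnr1 and mt-Rnr2 left out), the filter (none, stricter), the tool (DESeq2 1.42.0, limma 3.58.1 voom) or the samples (the compared groups alone, a replicate block, 1 library left out at a time).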

Additional observations from a re-analysis of the deposited data

How the results depend on the processing

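Over 77 pairs of a named gene and a comparison, 42 of which had passed, 1215 values were recomputed. The NeuroD1 calls of Tspan13, Ahr, Galnt4 and Bace2 and the Glu call of St3gal4 were not among these pairs. None of the 42 reversed, 109 of their 650 values lost the call, and 14 of the 565 values of pairs that had not passed gained it. Scaling by library totals put the median gene at a log2 fold change of -0.28 for NeuroD1, beside 0.02 with TMM, -0.19 beside 0.12 for Glu, -0.51 beside -0.14 between positives and -0.39 beside -0.01 between negatives, and the share of calls that were higher was 31.5% beside 46.3%, 42.4% beside 63.6%, 19.3% beside 39.1%, 54.8% beside 74.3% and, for the interaction, 56.0% beside 81.2%. Upper quartile scaling gave 49.0% for Glu.

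Values near 0 turned sign. Muc13 in the NeuroD1 strain had 0.01 by limma voom, 0.01 with the replicate block and -0.27 to 0.29 with 1 library left out. Tff3 in the Glu strain had -0.29 with library totals, -0.23 with upper quartile scaling, -0.04 without mt-Rnr1 and mt-Rnr2, -0.01 with the groups alone and -0.23 to 0.39 with 1 library left out. Agr2 between the positives had -0.20 with library totals and -0.21 to 0.55 with 1 library left out. Between the negatives Muc2 ranged over -0.62 to 0.01 and Zg16 over -0.40 to 0.11, and the Spdef interaction was -0.00 by limma voom and -1.34 to 1.44 with 1 library left out. The cause was not tested.

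Of the 10 genes, library totals called 1 higher for NeuroD1 in place of 3, and for Glu 3 lower in place of 1, as did no filter and limma voom, with 2 by upper quartile scaling and 0 with the groups alone. Between the positives limma voom and the groups alone called 3 lower in place of 5, and for the interaction no filter called 3 lower. With 1 library left out the counts were 1 to 3 higher for NeuroD1, 0 to 3 lower for Glu, 3 to 5 lower between the positives and 0 to 2 lower for the interaction.

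Counts over all genes moved more. For Glu, in place of 605 higher and 346 lower, DESeq2 called 976 and 566, no filter 964 and 587, and the groups alone 195 and 145, with 360 higher by library totals. Between the positives, in place of 456 and 709, DESeq2 called 709 and 1121, library totals 283 and 1183, and the groups alone 241 and 324, with 1248 lower by no filter and 243 lower by limma voom. Between the negatives, in place of 52 and 18, DESeq2 called 127 and 43 and no filter 153 and 92, with 38 lower by library totals and 50 lower by the groups alone. For the interaction, in place of 13 and 3, DESeq2 called 57 and 118, no filter 78 and 260 and limma voom 8 and 0, with 11 lower by library totals. With 1 library left out the counts higher and lower were 534 to 731 and 720 to 874 for NeuroD1, 108 to 818 and 79 to 369 for Glu, 245 to 860 and 303 to 1322 between the positives, 21 to 46 and 4 to 9 between the negatives, and 5 to 21 and 0 to 31 for the interaction. A lone library left in Glu negative was assumed to vary like the other groups.

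Deviations of same-numbered libraries from their group means were hardly correlated (r = 0.05, 0.01 and 0.01 in the NeuroD1 strain, 0.04 and 0.04 in the Glu strain). With 2 or 3 libraries per group such values cannot exclude pairing. The main fit did not pair the libraries by number, and the replicate block was run as an alternative. With the replicate block the Glu comparison called 195 lower and the interaction 10 lower, and the block moved no other count of calls by over 1.5 times. Spdef had 0 to 64 counts in a library, and Agr3 had 1 to 24 in a negative library, so counting error is widest for these values.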
